A study of Homo sapiens with 16 samples.

Results

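Granins are the soluble, acidic proteins of dense-core secretory granules, the vesicles in which endocrine cells and peptide-releasing neurons store hormones and neuropeptides. The 7 granin genes described here are CHGA, CHGB, SCG2, SCG3, SCG5, VGF and PCSK1N. They were chosen by family name, with earlier results of these libraries already known, so their values are given as a description and carry no test. All 7 symbols were found, each as 1 row among 58884 genes of the expression table. Only 3 of the 7 (CHGA, SCG5 and PCSK1N) had a mean of at least 0.5 TPM over the libraries, the level above which 16300 genes were tested. SCG5 lay just inside this limit at 0.517 TPM and CHGB just outside at 0.438 TPM.

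RNA-seq had been carried out on wild-type 293T cells 72 h after transfection of a scramble siRNA pool, a SETD2 siRNA pool or an hnRNP L siRNA pool, with 2 libraries per siRNA. 293T is a human embryonic kidney line that carries the SV40 large T antigen. SETD2 is the methyltransferase that places trimethylation on lysine 36 of histone H3, and hnRNP L is an RNA-binding regulator of splicing. The comparison of each depletion with scramble siRNA asks how the transcriptome depends on that protein, and the direct comparison asks where the depletions differ. The siRNAs were pools, so single siRNA sequences cannot be told apart, and all cells were of 1 line. The study describes the libraries of a group as independent biological replicates, and the SD gives the spread between these libraries. The p-values of the main fit set a difference between groups against a spread estimated from all 6 libraries and from other genes.

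Expression is in TPM (transcripts of a gene scaled to a fixed library total), which is scaled for transcript length, so levels can be compared between genes. The deposited values are in steps of 0.01 TPM, and each library sums to 1000000. No read counts per gene could be recovered from TPM, so the reads behind each value are unknown and no counting interval is given. The study reports the aligned read pairs of each library, and these differed between libraries. The SETD2 transcript fell from 12.5 ± 1.19 TPM (SD, n = 2 here and for each mean below) in the scramble libraries to 4.58 ± 0.474 TPM after its own depletion, a log2 change of -1.36 (limma adjusted p = 0.00603). HNRNPL fell likewise from 399 ± 82.1 to 26.9 ± 2.67 TPM, a log2 change of -3.85 (limma adjusted p = 8.48e-06). Markers fixed for the 293T line were present in every library, including VIM at 649.5 to 940.78 TPM, NEFM at 183.74 to 454.39 TPM and PAX2 at 1.65 to 2.79 TPM, while the blood marker PTPRC was at 0 in all 6.

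Granins condense in the acidic, calcium-rich trans-Golgi, are packed into granules with the hormones, and are cut into shorter peptides inside them. CHGA and CHGB, the chromogranins, aggregate and promote granule formation, and CHGA is also the source of peptides such as vasostatin and catestatin. SCG2 is the precursor of secretoneurin, SCG3 binds CHGA and tethers it to the granule membrane, and VGF is a neurotrophin-inducible precursor of several neuropeptides. SCG5 and PCSK1N act on the convertases that cut prohormones: SCG5 is a chaperone and inhibitor of PCSK2, and PCSK1N (proSAAS) is an inhibitor of PCSK1. Kidney cells are not a professional secretory cell type of this kind, and chromogranins serve in pathology as markers of neuroendocrine cells.

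The 7 genes lie on 6 chromosomes of hg38 (GENCODE v44 annotation). CHGA (ENSG00000100604) spans chr14:92923150-92935285 on the plus strand with 8 exons in its canonical transcript. CHGB (ENSG00000089199) spans chr20:5911510-5925353 on the plus strand with 5 exons. SCG2 (ENSG00000171951) spans chr2:223596940-223602361 on the minus strand with 2 exons. Chromosome 15 holds both SCG3 (ENSG00000104112), at chr15:51681492-51721026 with 12 exons, and SCG5 (ENSG00000166922), at chr15:32641676-32697098 with 6 exons, both on the plus strand. VGF (ENSG00000128564) spans chr7:101162509-101165569 on the minus strand with 2 exons, and PCSK1N (ENSG00000102109) spans chrX:48831096-48835610 on the minus strand with 3 exons. Most were compact: CHGA, CHGB, SCG2, VGF and PCSK1N are 3061 to 13844 bases long, against a median of 34400.5 bases over 12802 protein-coding genes with a mean of at least 0.5 TPM. SCG3 and SCG5, at 39535 and 55423 bases, are longer than that median. SCG3 overlaps 2 antisense lncRNA genes, and SCG5 overlaps the read-through gene ARHGAP11A-SCG5 and the antisense SCG5-AS1, so reads assigned to these 2 granins could have come from their overlapping transcripts. Neither overlapping gene of SCG5 is a row of the table under that name.

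Promoter windows from RefSeq (GRCh38.p14, 250 bases before to 50 bases after the start, 300 bases in all) matched 5 of the 7 granins, namely CHGA, SCG3, SCG5, VGF and PCSK1N. The 120 bases before the start are shown for CHGA, which was higher with both depletions, for VGF, whose groups overlapped, and for PCSK1N, the most abundant member. Capitals mark TGACGTCA, the cAMP response element (CRE) that binds CREB family factors, and all 3 sequences run 5′ to 3′ on the strand of the gene.
CHGA, chr14:92923030-92923149, plus strand: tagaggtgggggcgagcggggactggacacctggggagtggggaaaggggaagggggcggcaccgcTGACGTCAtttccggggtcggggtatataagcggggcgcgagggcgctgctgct
VGF, chr7:101165570-101165689, minus strand: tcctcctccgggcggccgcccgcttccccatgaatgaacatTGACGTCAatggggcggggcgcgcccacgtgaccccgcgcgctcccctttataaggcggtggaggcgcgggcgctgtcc
PCSK1N, chrX:48835611-48835730, minus strand: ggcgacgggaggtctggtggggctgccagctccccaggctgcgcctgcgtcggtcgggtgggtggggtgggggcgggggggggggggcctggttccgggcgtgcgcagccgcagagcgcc

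A complete CRE (TGACGTCA, both strands searched) stood at -54 to -47 from the start of CHGA and at -79 to -72 from that of VGF, so 2 of 5 granin windows held one, against 1.98% of 27305 promoters. The core TGACG, which is contained in every complete CRE, was in 4 of 5 windows (CHGA, SCG3, SCG5 and VGF) against 25.01% of all. GGGCGG, the GC box bound by SP family factors, was in 5 of 5 against 44.59%, and TATAAA was in 1 of 5 (VGF, on the opposite strand) against 11.95%. The GC content of the windows was 69.3% for CHGA, 62.0% for SCG3, 58.0% for SCG5, 67.7% for VGF and 68.3% for PCSK1N, beside a median of 58.3% over all promoters. CHGA and VGF shared the complete CRE. Of these, CHGA was separate from scramble siRNA with both depletions while the VGF groups overlapped, as described next. The part of the CRE in these values was not tested.

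REST, the repressor of neuronal and neuroendocrine genes outside those cells, binds the RE1 element, written here as CAGCACC, any 2 bases and GGACAG. This form was in 0 of 5 granin windows and in 0.05% of all promoters (14 of 27305). Both parts did occur in the SCG3 window, 8 bases apart, which was noticed after the sequence had been read. The stretch is shown with its 2 parts in capitals, 11 to 31 bases after the start (chr15:51681513-51681533, plus strand), and 5 of 27305 promoters (0.0183%) hold the parts at this spacing.
SCG3: CAGCACCcacagggcGGACAG

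CHGA was 0.63 and 0.42 TPM in the scramble libraries, 1.54 and 1.34 TPM with SETD2 siRNA, and 1.43 and 1.16 TPM with hnRNP L siRNA. All 4 depleted libraries were above both scramble libraries, and the depleted groups overlapped each other. The means were 0.525 ± 0.148, 1.44 ± 0.141 and 1.295 ± 0.191 TPM, that is 2.74 and 2.47 times the scramble mean. On the log2(TPM + 0.5) scale, which understates the change of low genes, the difference from scramble siRNA was 0.93 (SE 0.215) with SETD2 siRNA and 0.81 (SE 0.215) with hnRNP L siRNA.

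CHGB, the other chromogranin, was 0.12 and 0.15 TPM in the scramble libraries, 0.60 and 0.67 TPM with SETD2 siRNA, and 0.52 and 0.57 TPM with hnRNP L siRNA. The 3 groups did not overlap, and both depleted groups stood well above scramble siRNA at 4.70 and 4.04 times its mean of 0.135 ± 0.0212 TPM. The log2 differences were 0.84 (SE 0.116) and 0.72 (SE 0.116). CHGB had the highest ratio to scramble siRNA of the 7 granins in both comparisons, but the absolute differences were 0.5 TPM or less.

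SCG3 was 0.16 and 0.25 TPM in the scramble libraries, 0.57 and 0.61 TPM with SETD2 siRNA, and 0.37 and 0.42 TPM with hnRNP L siRNA. The groups were separate, with hnRNP L siRNA between the other 2. The ratio to the scramble mean was 2.88 with SETD2 siRNA (log2 difference 0.63, SE 0.133) and 1.93 with hnRNP L siRNA (0.35, SE 0.133). Directly compared, hnRNP L siRNA was lower than SETD2 siRNA by a log2 difference of -0.28 (SE 0.133).

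SCG2 was 0.10 and 0.14 TPM in the scramble libraries, 0.14 and 0.09 TPM with SETD2 siRNA, and 0.09 and 0.03 TPM with hnRNP L siRNA. It was the lowest granin in each group. Both hnRNP L libraries were below both scramble libraries, but by as little as 0.01 TPM, the step in which values are written, and the log2 differences of -0.01 and -0.15 were within their SE of 0.151. VGF was 0.37 TPM in both scramble libraries, 0.30 and 0.40 TPM with SETD2 siRNA, and 0.24 and 0.53 TPM with hnRNP L siRNA. The lowest and the highest VGF values both came from hnRNP L siRNA, so its groups overlapped throughout, with log2 differences of -0.04 and 0.01 (SE 0.215).

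SCG5 was 0.65 and 0.76 TPM in the scramble libraries, 0.96 and 0.32 TPM with SETD2 siRNA, and 0.27 and 0.14 TPM with hnRNP L siRNA. The hnRNP L libraries were below the other 4, at 0.291 times the scramble mean (log2 difference -0.78, SE 0.312). The SETD2 libraries lay on either side of the scramble libraries, and the difference of -0.14 became -0.55 without SETD2 siRNA replicate 2 and 0.28 without SETD2 siRNA replicate 3. ARHGAP11A, the upstream neighbour with which SCG5 forms the annotated read-through, was 27.04 to 41.83 TPM over the 6 libraries, many times the level of SCG5. How the authors' quantification divided reads between them was not tested.

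PCSK1N was 41.1 and 39.03 TPM in the scramble libraries, 45.57 and 45.56 TPM with SETD2 siRNA, and 47.78 and 44.53 TPM with hnRNP L siRNA. Both depleted groups were above scramble siRNA without overlap, at 1.14 and 1.15 times its mean of 40.1 ± 1.46 TPM. The log2 differences of 0.18 and 0.20 (SE 0.0969) were small beside those of CHGA and CHGB. The difference with hnRNP L siRNA was 0.30 after median-ratio scaling of the libraries.

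**Figure D1:**
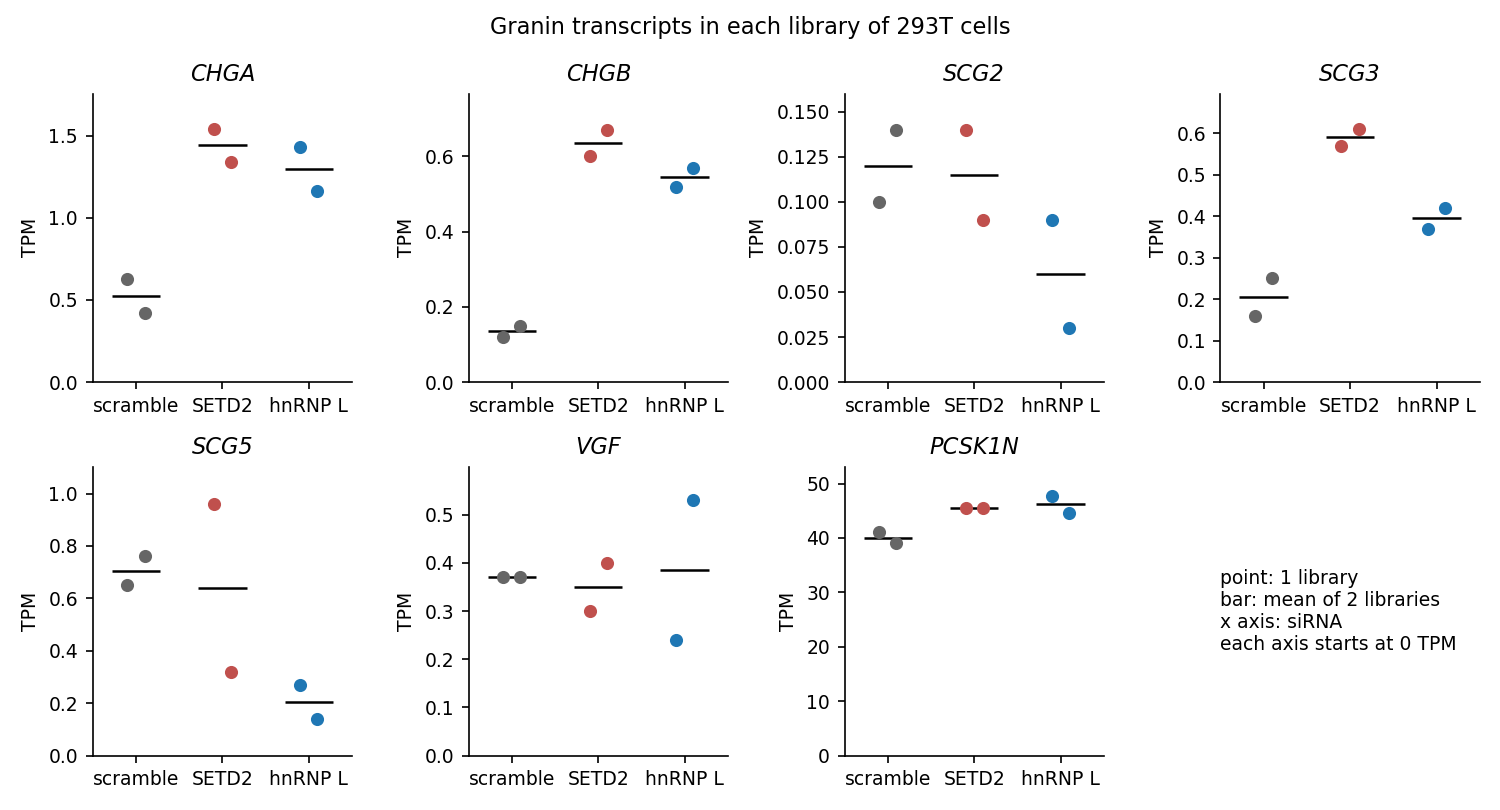
TPM (y axis, from 0 in each panel) of the 7 granins by siRNA (x axis), 1 point per library and a bar at the mean of 2 libraries. CHGA, CHGB, SCG3 and PCSK1N lie above the scramble libraries with both depletions, SCG5 lies lowest with hnRNP L siRNA, and VGF and SCG2 stay within 0.53 TPM.

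With SETD2 siRNA, 4 of 7 granins (CHGA, CHGB, SCG3 and PCSK1N) were higher than in scramble siRNA with no overlap of libraries, 0 were lower and 3 overlapped. Of 20436 genes above 0 TPM in all libraries, 21.1% were higher and 20.5% lower in this way. With hnRNP L siRNA the same 4 granins were higher than scramble siRNA and 2 (SCG2 and SCG5) were lower, beside 18.2% and 35.4% of genes. Against SETD2 siRNA, hnRNP L siRNA had 0 higher granins and 3 lower (CHGB, SCG3 and SCG5), beside 18.6% and 37.2% of genes. Both comparisons with scramble siRNA share its 2 libraries, so the shared 4 are not independent. The counts were the same after median-ratio scaling of the libraries, where the shares over all genes were 28.6% higher and 28.1% lower for hnRNP L siRNA against scramble siRNA. For every granin, a change in the share of expressing cells and in the amount per cell cannot be told apart in bulk RNA.

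**Figure D2:**
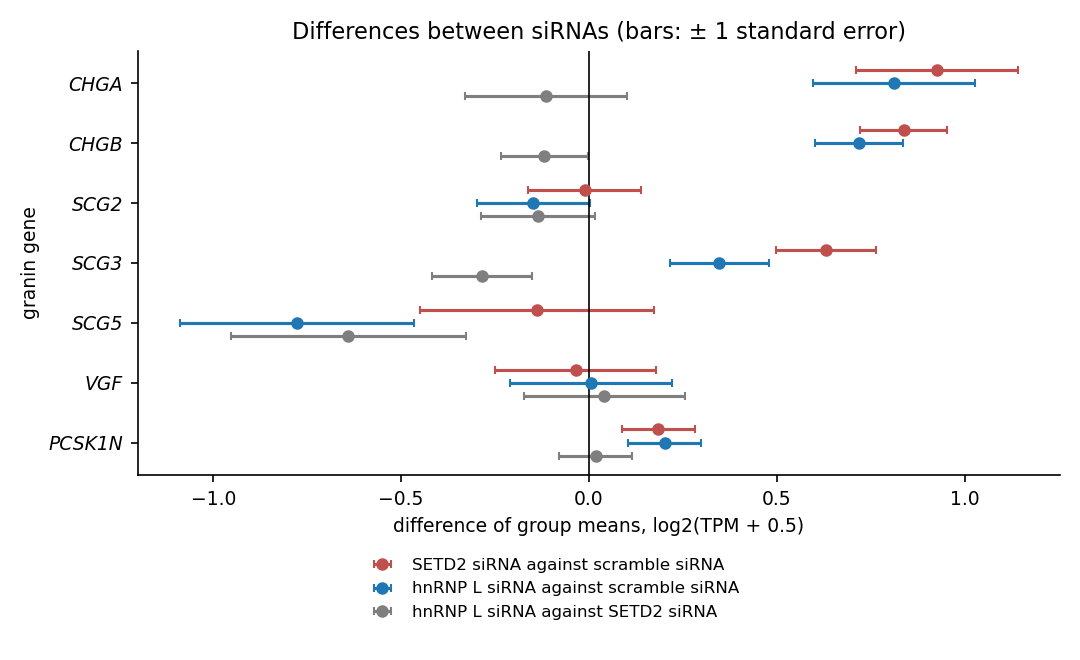
Difference of group means on the log2(TPM + 0.5) scale (x axis) for each granin (y axis) in the 3 comparisons, with bars of ± 1 standard error. CHGA and CHGB lie farthest to the right against scramble siRNA, from 0.72 to 0.93, and SCG5 with hnRNP L siRNA lies farthest to the left at -0.78.

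The granins differed widely in level. PCSK1N had a mean of 43.9 TPM over the 6 libraries and ranked 2926 of 58884 genes, whereas CHGA followed at 1.09 TPM (rank 14391), SCG5 at 0.517 TPM (rank 16191) and CHGB at 0.438 TPM (rank 16659). SCG3 had a mean of 0.397 TPM, VGF of 0.368 TPM and SCG2 of 0.0983 TPM (rank 20963). In scramble siRNA the order was PCSK1N, SCG5, CHGA, VGF, SCG3, CHGB and SCG2, in which only the neighbours CHGB and SCG2 overlapped. With SETD2 siRNA it was PCSK1N, CHGA, SCG5, CHGB, SCG3, VGF and SCG2, with SCG5 and CHGB overlapping, as did CHGB and SCG3. The SCG5 libraries there also spanned those of SCG3 and overlapped those of VGF. With hnRNP L siRNA it was PCSK1N, CHGA, CHGB, SCG3, VGF, SCG5 and SCG2, with SCG3 and VGF overlapping, as did VGF and SCG5. The VGF libraries there also spanned 1 of those of CHGB. By mean, CHGB thus stood the sixth of the 7 with scramble siRNA, the fourth with SETD2 siRNA and the third with hnRNP L siRNA, in the latter groups with the overlaps given.

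PCSK1N made up 95.3% and 94.9% of the summed granin TPM with scramble siRNA, 91.7% and 93.0% with SETD2 siRNA, and 94.2% and 94.0% with hnRNP L siRNA. The sum of the other 6 was 2.03 and 2.09 TPM in the scramble libraries, 4.11 and 3.43 TPM with SETD2 siRNA, and 2.92 and 2.85 TPM with hnRNP L siRNA. The groups were separate, in the order scramble, hnRNP L and SETD2 siRNA. Within that sum CHGA, CHGB and SCG3 together gave 0.91 and 0.82 TPM, 2.71 and 2.62 TPM, and 2.32 and 2.15 TPM.

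**Figure D3:**
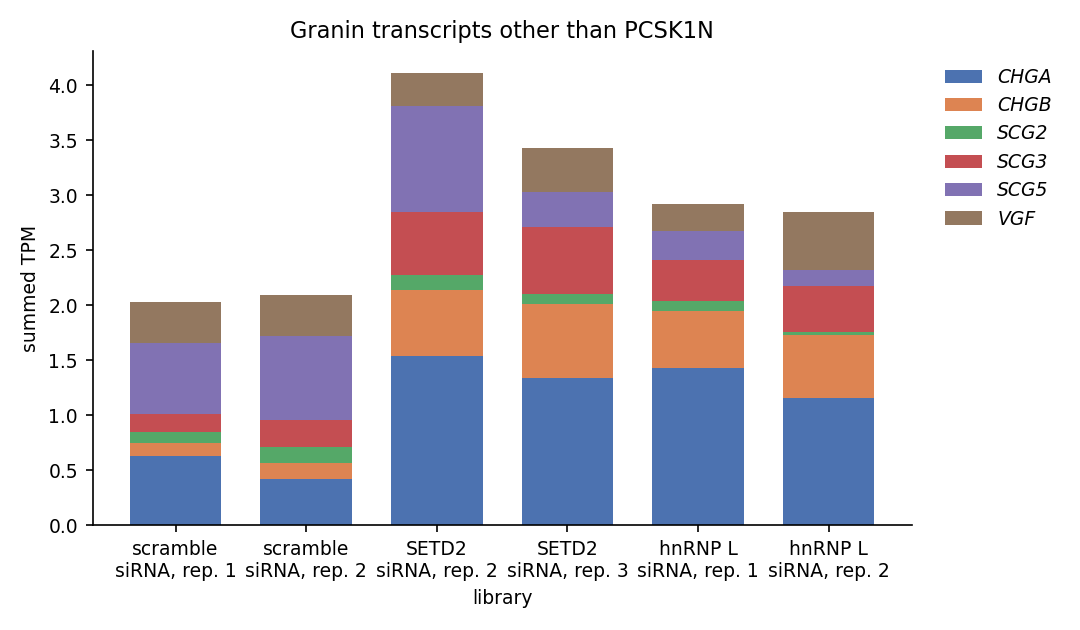
Summed TPM (y axis, from 0) of the 6 granins other than PCSK1N in each library (x axis), stacked by gene. The bars reach 2.03 and 2.09 with scramble siRNA, 4.11 and 3.43 with SETD2 siRNA, and 2.92 and 2.85 with hnRNP L siRNA, and the CHGA and CHGB segments are the most enlarged.

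Markers of chromaffin and other neuroendocrine cells were summed in the same libraries. The 10 genes came to 12.19 and 12.85 TPM in the scramble libraries, 29.35 and 28.56 TPM with SETD2 siRNA, and 22.58 and 22.27 TPM with hnRNP L siRNA. Most of this was SYP, which encodes the small-vesicle protein synaptophysin, at 8.59 and 9.21, 25.67 and 24.66, and 19.12 and 18.95 TPM. Without SYP, an omission chosen after its values were seen, the other 9 summed to 3.6 and 3.64, 3.68 and 3.9, and 3.46 and 3.32 TPM. DBH and SLC18A1, the noradrenaline-synthesising enzyme and a vesicular amine transporter of chromaffin cells, were at 0 in all 6 libraries. TH, the first enzyme of catecholamine synthesis, was 0.02 TPM in 1 library and otherwise at 0. INSM1, a transcription factor of neuroendocrine cells, was 2.36 to 3.45 TPM. The part of SYP-expressing cells in the granin values was not tested.

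The rest of the granule pathway was examined in 5 lists of 123 genes, of which 78 passed the limit of 0.5 TPM and were tested with limma on log2(TPM + 0.5). A gene was called at a Benjamini-Hochberg adjusted p under 0.05 over all 16300 genes and a fold change above 1.5. With SETD2 siRNA 1 list gene rose and 0 fell, where 9 genes in all rose (0.0552%) and 8 fell (0.0491%). With hnRNP L siRNA 1 list gene rose and 4 fell, where 286 genes in all rose (1.75%) and 816 fell (5.01%). In the direct comparison hnRNP L siRNA had 0 list genes called higher than SETD2 siRNA and 4 called lower, where 350 genes in all were higher (2.15%) and 765 lower (4.69%). The split over all genes depended on the scaling: after median-ratio scaling 429 rose and 517 fell with hnRNP L siRNA, and 453 were higher and 472 lower in the direct comparison. Of the list genes, 2 then rose and 3 fell with hnRNP L siRNA, and 3 were lower in the direct comparison. Scaling moved the median of all tested genes with hnRNP L siRNA from a log2 change of -0.08 to 0.00.

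Of the 13 genes listed as prohormone processing enzymes, 10 were tested and 3 fell with hnRNP L siRNA, beside 5.01% of all genes. The granule convertases PCSK1 and PCSK2 were not among the 10. All 10 had a negative log2 change, and the median was -0.52 against -0.08 over all tested genes (-0.42 after median-ratio scaling, again with 0 positive). Over all 16300 tested genes, 6325 had a positive change, and 8256 after median-ratio scaling. FURIN, the convertase of the trans-Golgi, fell from 30.9 ± 2.38 to 13.7 ± 0.933 TPM (log2 change -1.14, SE 0.125, adjusted p = 0.00235). PCSK4 fell from 4.39 ± 0.488 to 1.66 ± 0.170 TPM (-1.18, SE 0.159, adjusted p = 0.0049), and PCSK7 from 13.3 ± 1.57 to 8.11 ± 0.0636 TPM (-0.68, SE 0.124, adjusted p = 0.0135). The FURIN call held whichever library was left out. Without the limit of 0.5 TPM, all 3 calls were lost, FURIN at an adjusted p of 0.0968. The PCSK4 call was lost without hnRNP L siRNA replicate 2 (-1.10), and the PCSK7 call without scramble siRNA replicate 1 (-0.56) or either hnRNP L library (-0.68 and -0.67) and after median-ratio scaling (-0.58).

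CPE, the carboxypeptidase that trims basic residues after convertase cleavage, went from 65.0 ± 6.31 to 43.9 ± 0.424 TPM with hnRNP L siRNA (-0.56, adjusted p = 0.0141), under the fold limit, which it passed without scramble siRNA replicate 2 (-0.66). PAM, the enzyme that amidates peptide ends, went from 62.1 ± 2.35 to 44.5 ± 5.69 TPM (-0.48, adjusted p = 0.0297), also under that limit. With SETD2 siRNA 0 of the 10 enzymes were called, 2 had a positive change and the median was -0.14. Over all 16300 tested genes, 8585 had a positive change with SETD2 siRNA and the median was 0.01. FURIN was then 31.2 ± 3.95 TPM and CPE 64.4 ± 2.56 TPM (adjusted p = 0.986 and 0.984). The direct comparison called FURIN (-1.15, adjusted p = 0.0023) and PCSK4 (-0.92, adjusted p = 0.0116) lower with hnRNP L siRNA, the PCSK4 call being lost when any library of either group was left out (-0.84 to -1.005). Both direct calls were also lost without the limit of 0.5 TPM. PCSK1 and PCSK2, the granule convertases that PCSK1N and SCG5 act on, were below the limit in these cells, with group means of 0.01 to 0.055 TPM for PCSK1 and 0.19 to 0.265 TPM for PCSK2. The PCSK1N transcript, at 39.03 TPM or more in every library, was thus far above the PCSK1 transcript. Protein levels were not examined here.

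Of 25 genes of granule biogenesis and sorting, 20 were tested, and AP3B2 was the only one called. AP3B2, the neuronal beta subunit of the AP-3 sorting adaptor, rose from 1.57 ± 0.0283 to 4.80 ± 0.283 TPM with SETD2 siRNA (log2 change 1.36, SE 0.152, adjusted p = 0.0153). It was 2.90 ± 0.205 TPM with hnRNP L siRNA (0.71, adjusted p = 0.0229), and lower there than with SETD2 siRNA (-0.64, adjusted p = 0.0323). The call against scramble siRNA was lost with SETD2 siRNA when any library of either group was left out, and with hnRNP L siRNA when any of the 6 was, while the log2 changes stayed at 1.301 to 1.41 and 0.65 to 0.77. The direct call was lost when any of its 4 libraries was left out (-0.58 to -0.70) and after median-ratio scaling (-0.55). Without the limit of 0.5 TPM the call with SETD2 siRNA held (adjusted p = 0.0436), and the other AP3B2 calls were lost. The hnRNP L call against scramble siRNA was also lost in a fit with a block for the replicate number. The list medians were 0.01 with SETD2 siRNA and -0.12 with hnRNP L siRNA (-0.02 after median-ratio scaling).

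Of 28 genes of granule docking and release 19 were tested, and limma called 0 in each comparison, with 2, 3 and 0 at an unadjusted p under 0.05 for SETD2 siRNA, hnRNP L siRNA and the direct comparison. Their medians were -0.02, 0.02 and 0.09, or -0.03, 0.11 and 0.18 after median-ratio scaling. Over all 16300 tested genes, 2139, 4630 and 4648 had an unadjusted p under 0.05 in the same 3 limma comparisons. Of 32 peptide and hormone precursors that granules carry, only 9 passed the limit and limma called 0. Of the 9, 2, 1 and 1 had an unadjusted p under 0.05, beside the counts over all genes just given. After median-ratio scaling APLN, the precursor of apelin, was called higher with hnRNP L siRNA, and it is named here after its values were seen. The other 23 precursors were below 0.5 TPM.

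Among 25 genes of the REST complex and neuroendocrine transcription factors, 20 were tested. REST itself was 6.85 ± 0.226 TPM with scramble siRNA, 5.34 ± 1.01 TPM with SETD2 siRNA (log2 change -0.34, SE 0.166, adjusted p = 0.412) and 5.01 ± 0.785 TPM with hnRNP L siRNA (-0.42, adjusted p = 0.135), neither of which passed the test. RCOR2, a corepressor of the CoREST family, fell from 5.23 ± 0.884 to 2.84 ± 0.0283 TPM with hnRNP L siRNA (-0.77, SE 0.152, adjusted p = 0.0177) and was 5.30 ± 0.0778 TPM with SETD2 siRNA (adjusted p = 0.959). It was also lower in the direct comparison (-0.79, adjusted p = 0.0156). The call against scramble siRNA was lost without scramble siRNA replicate 2 (-0.61) or either hnRNP L library (-0.76 and -0.78), and the direct call when any of its 4 libraries was left out. Both RCOR2 calls were lost without the limit of 0.5 TPM. The call against scramble siRNA was also lost in a fit with a block for the replicate number. The list medians were 0.04 with SETD2 siRNA and -0.03 with hnRNP L siRNA, the latter 0.06 after median-ratio scaling.

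**Figure D4:**
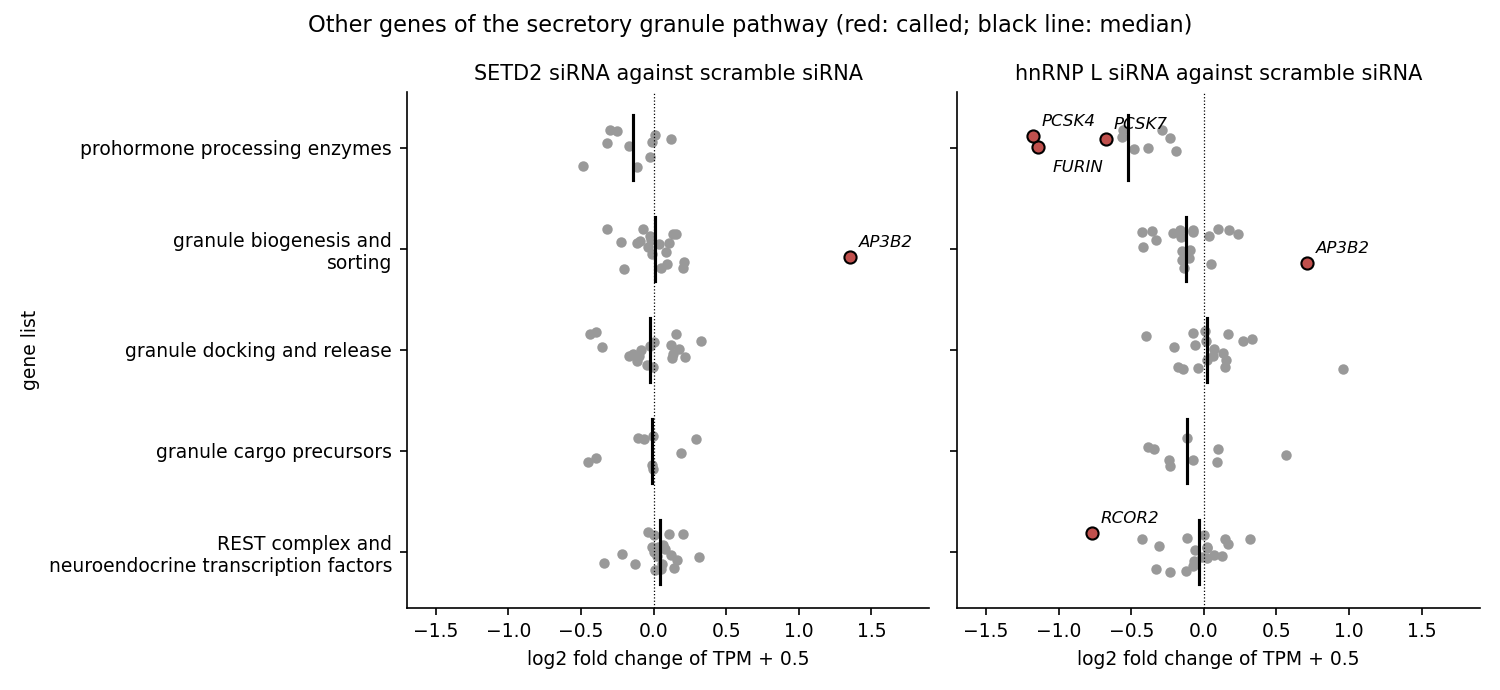
Log2 fold change of TPM + 0.5 (x axis) of the tested genes of the 5 lists (y axis) against scramble siRNA, with SETD2 siRNA on the left and hnRNP L siRNA on the right. Red points are called genes and black lines are list medians. The processing enzymes all lie below 0 with hnRNP L siRNA, around a median of -0.52. Of all 16300 tested genes, 6325 were above 0 in that comparison.

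For the 3 granins above the limit, the tested genes with the most similar profile were sought by the Euclidean distance between log2(TPM + 0.5) values centred on each gene's mean over the 6 libraries. For CHGA these were C4orf48 (distance 0.339), CD68 (0.349) and CFAP54 (0.374), against a median distance of 1.19 over all genes. C4orf48 was 17.02 and 14.07 TPM in the scramble libraries, 26.58 and 25.79 TPM with SETD2 siRNA, and 22.49 and 23.33 TPM with hnRNP L siRNA. For SCG5 they were AL390334.1 (0.246), AC239811.1 (0.266) and TCAP (0.274), against a median of 1.08. TCAP was 0.59 and 0.76, 0.86 and 0.46, and 0.24 and 0.17 TPM. For PCSK1N they were CHMP4C (0.0780), SNRPE (0.0784) and UQCRB (0.0805), against a median of 0.532. The genes were picked for their likeness in these same libraries, so a shared pattern follows from the selection. With 6 libraries and 16300 candidates, such distances are a description of these libraries.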

How the data were processed

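RNA was measured in 6 libraries of wild-type 293T cells after ribodepletion and polyA enrichment, and the H3K36me3 ChIP samples of the series were not analysed here. Per the methods and the submitters' processing notes, paired reads were aligned by STAR 2.6.1c to hg38 and Ensembl gene models, and RSEM 1.3.0 gave the deposited TPM of each gene, as the authors describe. Groups and replicate numbers came from the labels. TPM are relative within a library, so a large change in abundant transcripts shifts all others.

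Values were transformed to log2(TPM + 0.5), genes with a mean of at least 0.5 TPM were kept, and 3 group means were fitted with limma 3.58.1 (R 4.3.3) with a variance trend and Benjamini-Hochberg adjustment, calling at 0.05 and a 1.5-fold change. Standard errors of granins under the filter came from the same fit without it. The script was tested on simulated data. Members and lists were chosen with earlier results of these data known. Named genes were the 7 granins, SETD2, HNRNPL, PCSK1, PCSK2, CPE, PAM, REST, called list genes (at most 10 per comparison and direction) and the 3 nearest profiles of each granin above the filter, while markers came from fixed lists. Scramble and hnRNP L libraries shared both replicate numbers and SETD2 libraries only number 2 with them, and no source says that a number pairs libraries. Alternatives changed the pseudocount, filter, scaling, variance trend, groups fitted and libraries. Protein sequences were not used here.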

Additional observations from a re-analysis of the deposited data

How the results depend on the processing

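With SETD2 siRNA against scramble siRNA, 17 genes were called, and 5 without the filter, 27 with a filter of 1 TPM, 60 among protein-coding and lncRNA genes only (chosen after seeing the data) and 8 to 38 when 1 library was left out. The 1 list gene called became 0 to 1. With hnRNP L siRNA against scramble siRNA, 1102 genes became 85 without the filter, 715 with the replicate block and 172 to 821 when 1 library was left out, and the 5 list genes became 0, 3 and 1 to 4. In the direct comparison 1115 genes became 65 without the filter and 127 to 1006 when 1 library was left out, and the 4 list genes became 0 and 1 to 4. Fewer or more genes tested and fewer libraries are the construction of these alternatives; otherwise the cause was not tested. The deviations of scramble and hnRNP L libraries of the same number had a weak negative correlation (r = -0.126 across genes). With 2 libraries per group this cannot decide whether the numbers pair libraries, and no source says that they do. In the same check r was -0.0362 for scramble and SETD2 libraries and 0.183 for SETD2 and hnRNP L libraries, taken in label order. The replicate block ended the hnRNP L calls of AP3B2 and RCOR2, and a crossed pairing, added after seeing the data, gave 1406 calls. Without the filter the SETD2 transcript itself lost its call with SETD2 siRNA (adjusted p = 0.129). No called result changed sign among those recomputed. Of the granin differences, the size depended on the pseudocount: with 0.1 in place of 0.5 the log2 difference with SETD2 siRNA was 1.32 for CHGA, 1.65 for CHGB and 1.19 for SCG3, and with 1 it was 0.68, 0.53 and 0.40. With hnRNP L siRNA, SCG5 was -1.43 with 0.1. The VGF difference with hnRNP L siRNA took opposite signs, 0.24 and -0.23, according to which hnRNP L library was left out. With 2 libraries per group and most granins under 1 TPM, small differences cannot be resolved here.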
